A study of Homo sapiens with 10 samples.

Results

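The mitochondrial ribosomal protein genes, the MRPL and MRPS genes, were examined for peaks of the chromatin reader ZMYND8 in human HEK293 cells. The genes were chosen by name: all protein-coding genes of the GENCODE annotation on GRCh37 (hg19) called MRPL or MRPS followed by a number, with or without a final letter, on the autosomes and chromosome X. This gave 78 genes, 49 MRPL and 29 MRPS, of 20098 protein-coding genes. HEK293 is an established human embryonic kidney line. The labels describe its Flp-In T-REx derivatives that stably express full-length 3xFLAG-ZMYND8 or its N228F mutant, without saying which of these served for the antibody to ZMYND8 itself. For the FLAG pull-down, expression was induced with 10 nM doxycycline, so that this ZMYND8 came from a transgene in addition to the cells' own. Chromatin immunoprecipitation with sequencing (ChIP-seq) was done in 2 replicates for each of 4 targets, which were the acetylation marks H3K14ac and H3K27ac and both forms of ZMYND8, and with 2 inputs this makes 10 samples. Chromatin was crosslinked with formaldehyde and cut with micrococcal nuclease. The marks and the inputs were not analysed here.

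For each of the 2 ZMYND8 targets 1 peak list was deposited, with 15086 ZMYND8 and 63690 FLAG-ZMYND8 peaks, and neither names a replicate. Read counts are not part of the lists, the depth behind a peak is therefore unknown, and no spread between replicates could be computed. Why the FLAG-ZMYND8 list is longer was not tested. The absence of a peak says only that none passed the threshold at which the list was made. Shares of genes and of peaks are given with 95% Wilson intervals, which cover counting error only, since genes and peaks are not replicates. Because the score column holds the value 1 in all rows, the width of a peak in base pairs (bp) is the only measure of its size. The narrowest peaks, 151 bp for ZMYND8 and 167 bp for FLAG-ZMYND8, make up most of each list, since 47% and 45.3% of peaks are wider.

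The mitochondrial ribosome translates the few messenger RNAs made from mitochondrial DNA, all of which encode subunits of the oxidative phosphorylation complexes. Its RNAs come from the mitochondrial genome, whereas its proteins are encoded in the nucleus, made in the cytosol and imported. Part of these proteins have bacterial homologues, and the others are found in mitochondria only. ZMYND8 is a nuclear protein with a PHD finger, a bromodomain and a PWWP domain that together bind histone tails, and its bromodomain recognises acetylated lysine. The names do not follow the structure throughout. MRPS30 and MRPS18A belong to the large subunit, and MRPS36 is now known as a component of the 2-oxoglutarate dehydrogenase complex. A few mitoribosomal proteins carry other names and fall outside the rule.

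The sequences on which peaks of both lists met are shown first, because they are the places where a peak of the antibody to ZMYND8 and a peak of its tag coincided. They are the 5 overlaps with the closest peak midpoints that kept at least 100 bases outside annotated untranslated regions. Each is the stretch of the common part of both peaks that lies outside such regions, read 5′ to 3′ on the strand of the gene, on GRCh37. For MRPL19, MRPL53 and MRPL3 this is 157 of 429, 105 of 677 and 100 of 221 bases of the common part. Capitals mark the letters of a searched motif.
MRPL19 (chr2:75874346-75874502, + strand): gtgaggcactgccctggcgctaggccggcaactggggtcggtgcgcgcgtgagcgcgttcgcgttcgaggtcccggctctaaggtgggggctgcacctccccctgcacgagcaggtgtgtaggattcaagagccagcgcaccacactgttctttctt
MRPL53 (chr2:74699380-74699484, - strand): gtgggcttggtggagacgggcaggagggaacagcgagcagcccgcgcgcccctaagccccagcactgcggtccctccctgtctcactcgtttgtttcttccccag
MRPL23 (chr11:1968936-1969102, + strand): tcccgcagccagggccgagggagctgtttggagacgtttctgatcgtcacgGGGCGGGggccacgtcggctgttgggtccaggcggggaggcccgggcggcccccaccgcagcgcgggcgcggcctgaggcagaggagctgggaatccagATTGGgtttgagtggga
MRPL3 (chr3:131221527-131221626, - strand): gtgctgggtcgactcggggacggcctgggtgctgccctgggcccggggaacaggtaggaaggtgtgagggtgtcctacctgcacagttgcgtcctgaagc
MRPS18C (chr4:84376626-84376818, + strand): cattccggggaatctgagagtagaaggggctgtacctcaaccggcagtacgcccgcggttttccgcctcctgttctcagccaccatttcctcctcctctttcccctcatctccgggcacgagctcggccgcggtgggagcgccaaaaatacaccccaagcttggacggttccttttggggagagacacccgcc
These stretches are 61.1 to 71.3% G and C. That of MRPL23 holds the SP letters GGGCGGG and a CCAAT box on the opposite strand, and the other 4 hold none of the motifs named further on. The stretch of MRPS18C lies in a coding exon of the neighbouring gene HELQ, a DNA helicase, and the middle of that of MRPL3 lies in an annotated coding exon.

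A second set shows the DNA between divergent starts, where 1 short stretch is the upstream region of both genes. The starts of MRPL46 and MRPS11, a large-subunit and a small-subunit gene, are 62 bases apart. Those of MRPS18C and HELQ are separated by 76 bases, and those of MRPL27 and the endonuclease subunit gene EME1 by 12.
MRPL46 and MRPS11 (chr15:89010622-89010683, + strand): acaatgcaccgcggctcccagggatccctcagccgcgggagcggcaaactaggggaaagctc
MRPS18C and HELQ (chr4:84377009-84377084, + strand): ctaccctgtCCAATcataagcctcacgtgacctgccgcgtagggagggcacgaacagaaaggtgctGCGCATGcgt
MRPL27 and EME1 (chr17:48450569-48450580, + strand): ACTTCCGctatc
Capitals mark a CCAAT box and the NRF1 letters in the stretch at MRPS18C, and the reverse complement of the ETS letters CGGAAGT in the stretch at MRPL27.

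The third set shows the letters ATGGCGG, which contain the core of the sequence that the transcription factor YY1 binds. They were found in 24 of the 78 promoters, and in 15 of these the ATG was the gene's own annotated start codon. Each line gives 27 bases with the motif in capitals, so that the first 3 capitals are the start codon and the next 3 encode alanine. The first 5 genes had a FLAG-ZMYND8 peak over the letters, and MRPL46 shares them with the promoter of MRPS11. No peak covered the letters at MRPL46, MRPL19 or MRPS9. Within 3 kb of the start, MRPL19 had peaks of both lists and MRPS9 of the ZMYND8 list alone.
MRPS10 (chr6:42185571-42185597, - strand): gaccggcaagATGGCGGcgcggacagc
MRPS14 (chr1:174992528-174992554, - strand): agcggacaacATGGCGGccttcatgct
MRPS18A (chr6:43655500-43655526, - strand): gtttttgaagATGGCGGccctcaaggc
MRPS35 (chr12:27863767-27863793, + strand): cctcgcagccATGGCGGccgccgcgct
MRPL58 (chr17:73008772-73008798, + strand): agacctgagcATGGCGGccaccaggtg
MRPL46 (chr15:89010592-89010618, - strand): agaacgaaagATGGCGGcgcccgtaag
MRPL19 (chr2:75873924-75873950, + strand): gctagctggcATGGCGGcctgcattgc
MRPS9 (chr2:105654541-105654567, + strand): cacagctaacATGGCGGcgccctgtgt

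Of the 78 genes, 57 had a FLAG-ZMYND8 peak and 32 a ZMYND8 peak at the transcription start. A peak was at a start when its midpoint lay within 3 kb of the 5′ end of the gene. The 57 genes were 73.1% (interval 62.3 to 81.7%) of the set, above the 58.1% of all protein-coding genes and near the 77.7% of genes with a GC- and CpG-rich promoter. The 32 genes were 41.0% (30.8 to 52.1%), an interval that includes both the 34.1% of all protein-coding genes and the 47.9% of those with such a promoter. A promoter was called rich when the window from 250 bases before to 50 after the start had at least 55% G and C and an observed over expected CpG ratio of at least 0.6. This held for 58 of the 78 genes (74.4%), against 50.7% of all. Within these 58, ZMYND8 peaks were at 24 (41.4%) and FLAG-ZMYND8 peaks at 44 (75.9%).

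Peaks of both lists were at 24 genes (30.8%, 21.6 to 41.7%), beside 29.4% of all protein-coding genes and 41.7% of those with a rich promoter. With only peaks wider than the minimum, the share with both fell to 17.9%, beside 18.2% of all genes, and the share with a ZMYND8 peak to 23.1%, beside 23%. Among all deposited peaks, a FLAG-ZMYND8 peak alone was at 33 genes, a ZMYND8 peak alone at 8, and no peak of either list at 13. These 13 were 16.7% of the set, against 37.2% of all genes and near the 16.1% of those with a rich promoter. Genes with both were 24 of the 32 in the ZMYND8 list and 42.1% of the 57 in the other, and over all genes these shares were 86.1% and 50.6%. Within the narrower window of 1 kb, 27 genes (34.6%) had a ZMYND8 peak, 54 (69.2%) a FLAG-ZMYND8 peak, 19 (24.4%) both and 16 (20.5%) neither. The shares of all protein-coding genes at 1 kb were 28.5%, 49.3%, 22.7% and 44.9%, and those of genes with a rich promoter 42.8%, 70.0%, 34.4% and 21.7%. The nearest peak lay within 500 bp of the start at 22 of the 32 genes with a ZMYND8 peak (68.8%). This was beside 63.1% of all genes with one and 70.8% of those with a rich promoter. For FLAG-ZMYND8 it held at 47 of the 57 genes (82.5%), beside 64.7% and 70.1%.

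**Figure D1:**
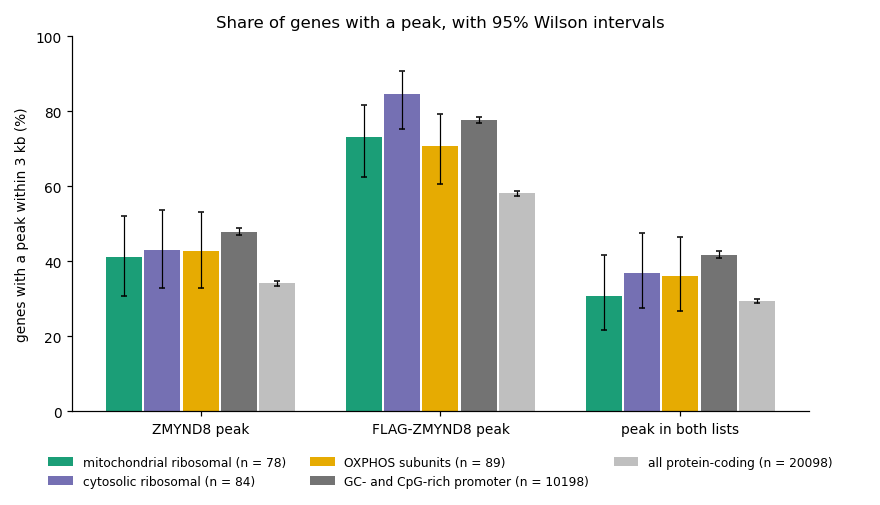
Share of genes with a peak within 3 kb of the start (%, vertical axis) for the ZMYND8 list, the FLAG-ZMYND8 list and both, in 5 gene sets; bars give the share and lines the 95% Wilson interval. The 78 mitochondrial ribosomal protein genes stand at 41.0%, 73.1% and 30.8%, between all protein-coding genes (34.1%, 58.1%, 29.4%) and those with a GC- and CpG-rich promoter (47.9%, 77.7%, 41.7%).

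Genes with a FLAG-ZMYND8 peak outnumbered those with a ZMYND8 peak within 3 kb in each of 6 related gene sets as well. Within 1 kb this held in 4 of them, since the mitoribosomal proteins with other names had 3 genes with a ZMYND8 and 2 with a FLAG-ZMYND8 peak and the assembly factors 10 of each. Of the 84 genes of the cytosolic ribosome, which translates nuclear messages, 36 (42.9%) had a ZMYND8 peak, 71 (84.5%, 75.3 to 90.7%) a FLAG-ZMYND8 peak and 31 both. Of the 89 nuclear genes for oxidative phosphorylation subunits, the partners of what the mitochondrial ribosome makes, 38 (42.7%) had a ZMYND8 peak, 63 (70.8%) a FLAG-ZMYND8 peak and 32 both. The intervals of the mitochondrial ribosomal set overlap those of both. The 5 mitoribosomal proteins with other names (DAP3, PTCD3, CHCHD1, AURKAIP1 and GADD45GIP1) had 3 genes with both peaks, 1 with FLAG-ZMYND8 alone and 1 with neither. Among 12 genes for mitochondrial translation factors, 5 had a ZMYND8 and 9 a FLAG-ZMYND8 peak, and among 24 mitoribosome assembly factors the counts were 10 and 13. Of 7 genes for mitochondrial transcription and RNA stability, all 7 had a FLAG-ZMYND8 peak and 1 a ZMYND8 peak.

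Genes of the 2 ribosomal subunits had shares with overlapping intervals. With MRPS30 and MRPS18A placed by structure and MRPS36 left out, the large subunit had 51 genes, of which ZMYND8 peaks marked 22 (43.1%, 30.5 to 56.7%), FLAG-ZMYND8 peaks 36 (70.6%) and both 18. The small subunit had 26, of which 10 had a ZMYND8 peak (38.5%, 22.4 to 57.5%), 20 a FLAG-ZMYND8 peak (76.9%) and 6 both. Neither peak was found at 11 genes of the large and 2 of the small subunit. By a fixed list, 45 proteins were counted as having a bacterial homologue and 33 as without. Of the MRPS18 genes only MRPS18C was counted as having one, and MRPL58 and MRPS36 were among those without, so the groups depend on that list. The 45 had 22 genes with a ZMYND8 peak (48.9%) and 31 with a FLAG-ZMYND8 peak (68.9%), against 10 (30.3%) and 26 (78.8%) of the 33. The intervals overlap in each of these pairs.

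**Figure D2:**
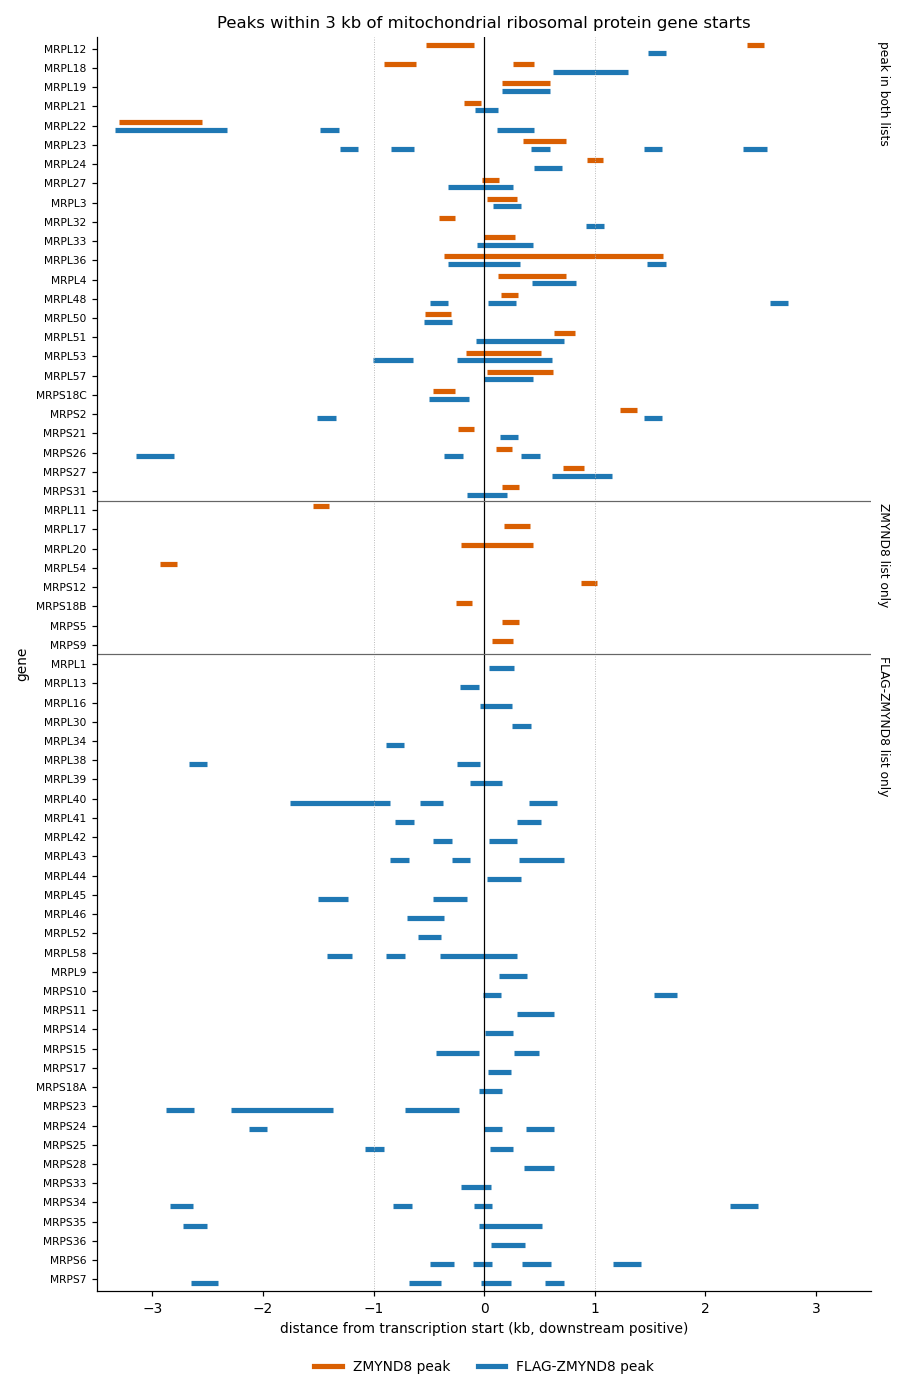
Peaks within 3 kb of the start at the 65 genes that have one, 1 row a gene, with the distance from the start in kb along the direction of transcription on the horizontal axis; bars run from the start to the end of each peak, ZMYND8 above and FLAG-ZMYND8 below. Bars crowd within 1 kb of the start, 24 rows hold both colours, and MRPL23 has 5 FLAG-ZMYND8 peaks.

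The exit tunnel, through which the new chain leaves the large subunit, is lined at its mouth by MRPL22, MRPL23 and MRPL24, with MRPL45 facing the inner membrane. MRPL23 had 1 ZMYND8 peak of 394 bp and 5 FLAG-ZMYND8 peaks of 167 to 215 bp, the most FLAG-ZMYND8 peaks of the set. Its ZMYND8 peak was centred 546 bp downstream of the start, in an intron, over a FLAG-ZMYND8 peak at 511 bp, the sequence printed above. MRPL24 had a ZMYND8 peak of 151 bp at 1002 bp downstream and a FLAG-ZMYND8 peak of 253 bp at 575 bp, which do not overlap. MRPL45 had FLAG-ZMYND8 peaks of 313 and 269 bp, both upstream and between genes, and its nearest ZMYND8 peak was 40672 bp away. At MRPL22 the ZMYND8 peak of 750 bp and the widest FLAG-ZMYND8 peak, 1016 bp, lay 2927 and 2834 bp upstream, nearer to the start of GEMIN5, a component of the SMN complex, than to MRPL22. A FLAG-ZMYND8 peak of 337 bp was 284 bp downstream of the start of MRPL22 itself.

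The stalk, which recruits translation factors, contains MRPL10 and MRPL12 with MRPL11 at its base, and MRPS12 lies at the decoding centre of the small subunit. MRPL12 had a ZMYND8 peak of 429 bp at 309 bp upstream and another of 151 bp at 2451 bp downstream, with a FLAG-ZMYND8 peak of 167 bp between them at 1563 bp. Both downstream peaks were nearer to another protein-coding start. MRPL11 had a ZMYND8 peak of 151 bp at 1475 bp upstream and no FLAG-ZMYND8 peak nearer than 11199 bp. MRPL10 had neither, the nearest peaks being 9804 bp and 9845 bp upstream. MRPS12 had a ZMYND8 peak of 151 bp at 948 bp downstream, and its nearest FLAG-ZMYND8 peak was 23861 bp away. MRPL11 and MRPS12 were thus alike in having 1 narrow ZMYND8 peak each and no FLAG-ZMYND8 peak, on opposite sides of the start.

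The 8 genes with a ZMYND8 peak and no FLAG-ZMYND8 peak include MRPL11, MRPS12 and MRPL54, whose ZMYND8 peak, 2856 bp upstream, was nearer to APBA3. MRPL20, a protein of the large subunit with a bacterial homologue, had one of the widest ZMYND8 peaks of the set, 645 bp, over its start, and its nearest FLAG-ZMYND8 peak was 3286 bp away, just past the limit. MRPL17 had a peak of 231 bp at 298 bp downstream. The small-subunit genes MRPS5, MRPS9 and MRPS18B had peaks of 151, 188 and 151 bp within 300 bp of the start. Of the 8 peaks, 5 were thus of the minimum width and MRPL20 was the exception in size.

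The 13 genes with neither peak were led by MRPS30, whose nearest peak of either list was 1142676 bp away. MRPS22 followed at 69585 bp, MRPL47 at 41460 bp, MRPL37 at 39020 bp and MRPL15 at 33537 bp. MRPL10, MRPL2, MRPL55, MRPL49, MRPL35, MRPS16, MRPL28 and MRPL14 had one between 9804 and 3162 bp. Their promoters were 47 to 79.3% G and C, so that GC-rich ones were among them. Of the set, MRPL22 (2927 bp) and MRPL54 (2856 bp) were just inside the limit for ZMYND8, and MRPL58 (3467 bp) and MRPS23 (3809 bp) just outside. For FLAG-ZMYND8, MRPL12 (1563 bp) and MRPS2 (1425 bp) were the last inside, and MRPL14 (3162 bp) and MRPL20 (3286 bp) the first outside. Over the 78 genes, the median distance to the nearest peak was 8777 bp for ZMYND8 and 357.5 bp for FLAG-ZMYND8, and over all protein-coding genes 19045.5 and 1069 bp.

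FLAG-ZMYND8 midpoints were dense in the bin of 250 bp just downstream of the starts. In the first 250 bp of the transcribed side, the set had 23 peak midpoints, or 29.5 per 100 genes, against 12.7 per 100 of all protein-coding genes and 17.4 per 100 of those with a rich promoter. For ZMYND8 it had 10 in that bin, 12.8 per 100 genes, against 7.98 and 12.3. In the 250 bp before the start, the set had 9 FLAG-ZMYND8 midpoints, 11.5 per 100 genes, against 7.69 of all and 11.9 of the rich promoters. In the next 250 bp downstream of the first bin it had 11 of them, 14.1 per 100 genes, against 12.8 of all and 17.9 of the rich promoters. Peaks covered the start itself at 5 of the 34 pairs of a gene and a ZMYND8 peak. With a FLAG-ZMYND8 peak, this held at 19 of the 97 pairs. The same counts over all protein-coding genes are not given here, so these are not read as a trait of the set. MRPL39 and MRPS34, with FLAG-ZMYND8 midpoints 14 bp and 12 bp from the start, were among the closest, and the FLAG-ZMYND8 peak of MRPL36, 653 bp wide, was centred on it.

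**Figure D3:**
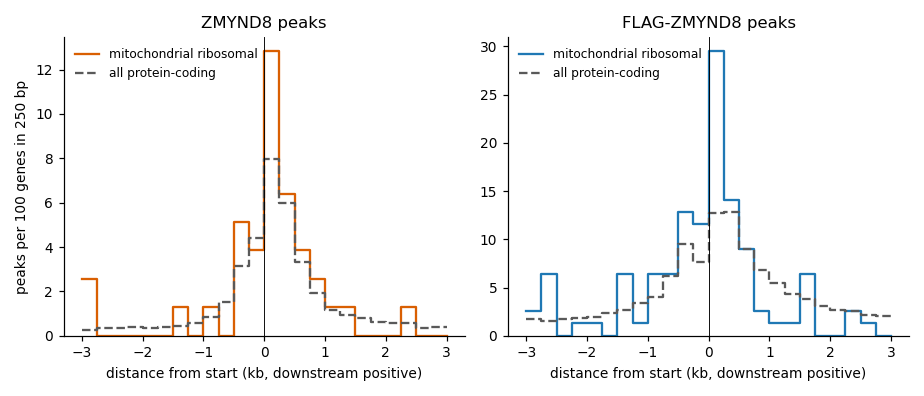
Peak midpoints per 100 genes in bins of 250 bp (vertical axis) against the distance from the start in kb, downstream positive, for ZMYND8 (left) and FLAG-ZMYND8 (right); solid lines are the 78 genes and dashed lines all 20098 protein-coding genes. In the bin just downstream of the start the solid lines reach 12.8 and 29.5 and the dashed lines 7.98 and 12.7; bins farther out hold few peaks of the 78 genes.

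Within 1 kb, 20 of 28 ZMYND8 midpoints were downstream (71.4%, 52.9 to 84.7%), near the 65.9% of all protein-coding genes, and 43 of 72 FLAG-ZMYND8 midpoints (59.7%, 48.2 to 70.3%), near 60.1%. The counts by neighbour are small. At genes with a divergent neighbour, on the opposite strand with starts within 1 kb, 5 ZMYND8 midpoints were downstream and 5 upstream. At the others 15 were downstream and 3 upstream (83.3%, 60.8 to 94.2%). For FLAG-ZMYND8 the counts were 6 and 5 at divergent genes and 37 and 24 at the others. The side over all protein-coding genes, split by neighbour, is not given here, so these splits are not read as a trait of the set.

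By the annotation of any gene, 12 of the 34 ZMYND8 midpoints lay in introns, 11 in coding exons, 7 in untranslated parts of exons, 3 in exons of non-coding transcripts and 1 between genes. Of the 96 FLAG-ZMYND8 peaks, 29 were in introns, 22 between genes, 21 in untranslated parts, 14 in coding exons and 10 in exons of non-coding transcripts. Peaks between genes were thus 1 of 34 in one list and 22 of 96 in the other. The same counts over the whole lists or at all protein-coding genes are not given here, so this contrast is not read as particular to the set. Beyond 3 kb of the start, the bodies of 9 genes (11.5%) held a ZMYND8 peak and those of 21 (26.9%) a FLAG-ZMYND8 peak, against 19.0% and 44.6% of all protein-coding genes. The genes of the set are short, with a median length of 11940.5 bp against 27256.5 bp, and the part of length in these shares was not tested. MRPL23 held 8 FLAG-ZMYND8 peaks in its body, the most of the set.

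Divergent neighbours were common: 17 of the 78 genes (21.8%) had one, against 8.47% of all protein-coding genes. Of these 17, 10 had a ZMYND8 peak (58.8%, 36 to 78.4%) and 12 a FLAG-ZMYND8 peak (70.6%), beside 50.4% and 79.7% of all genes with a divergent neighbour. The other 61 had 22 (36.1%) and 45 (73.8%), beside 32.6% and 56.1% of all genes without a divergent neighbour. MRPL36, whose start is 40 bases from that of the complex I subunit gene NDUFS6, had the widest ZMYND8 peak of the set, 1988 bp, which covered both starts and ranked 133 of 15086 by width. MRPL47 is paired at the same distance with another complex I subunit gene, NDUFB5, and had no peak of either list. MRPL49, with its start 5 bases from that of FAU, and MRPL10, 92 bases from LRRC46, had none either. MRPL46 and MRPS11 shared 1 FLAG-ZMYND8 peak of 338 bp, at chr15:89010980-89011317, in a coding exon, 465 bp into the MRPS11 side from the gap printed above.

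At MRPS18C the shared peaks, 193 bp for ZMYND8 and 355 bp for FLAG-ZMYND8, lay 363 and 318 bp upstream, past the gap and in HELQ. At MRPL50 those of 232 and 255 bp lay about 420 bp upstream, past the start of ZNF189, a zinc finger gene. At MRPL27 the FLAG-ZMYND8 peak of 588 bp and the ZMYND8 peak of 151 bp each covered both starts. At MRPL57, 105 bases from the start of SKA3, peaks of 593 and 446 bp were centred 322 and 223 bp downstream. A peak at such a pair cannot be assigned to one gene. Counting only peaks nearest to the gene's own start, a rule added after the data were seen, 23 genes of the set (29.5%) had one of ZMYND8 and 49 (62.8%) one of FLAG-ZMYND8, beside 29.1% and 53.2% of all protein-coding genes and 41.6% and 71.6% of those with a rich promoter.

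The peaks at the set were of moderate width. The widest ZMYND8 peak of a gene had a median of 190 bp over the 32 genes, against 234 bp over all genes with one, and an upper quartile of 402.8 bp against 525 bp. For FLAG-ZMYND8 the medians were 273 and 312 bp and the upper quartiles 407 and 548 bp. After MRPL36, the widest ZMYND8 peaks were at MRPL22 (750 bp), MRPL53 (677 bp), MRPL20 (645 bp) and MRPL4 (613 bp). The widest FLAG-ZMYND8 peaks were at MRPL22 (1016 bp), MRPS23 (921 bp), MRPL40 (907 bp), MRPL53 (860 bp) and MRPL51 (804 bp). MRPL53 was thus high in both lists at its own start, whereas the peaks of MRPL22 lay by GEMIN5 and those of MRPS23 and MRPL40 1827 and 1301 bp upstream. Of the 34 ZMYND8 peaks, 19 were wider than the minimum (55.9%, 39.5 to 71.1%), and of the 96 FLAG-ZMYND8 peaks 65 (67.7%, 57.8 to 76.2%). At all protein-coding genes the shares were 63.8% and 64.0%.

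**Figure D4:**
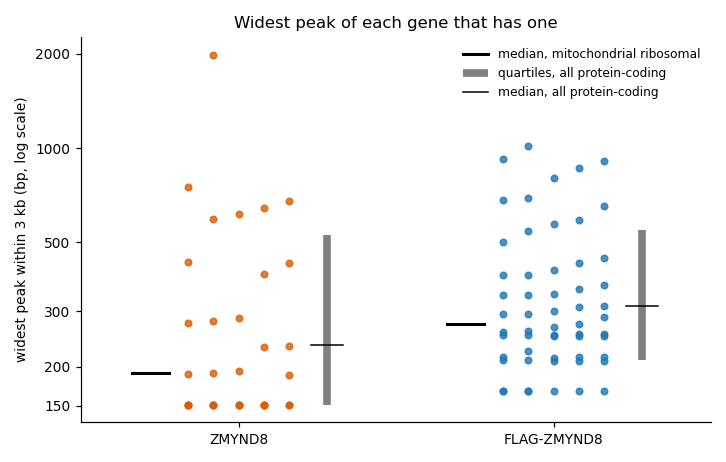
Width in bp (log scale) of the widest peak within 3 kb of each gene that has one, 32 genes for ZMYND8 and 57 for FLAG-ZMYND8; points are genes, black bars on the left the medians of the set, grey bars on the right the quartiles of all protein-coding genes with a line at their median. Many points sit at the minimum width of 151 or 167 bp, the medians of the set are 190 and 273 bp, and MRPL36 stands highest at 1988 bp.

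Most genes with a peak had 1 of a kind. For ZMYND8, 30 genes had 1 and MRPL12 and MRPL18 had 2, of which 1 at each was nearer to another protein-coding start. For FLAG-ZMYND8, 34 had 1, 11 had 2 and 12 had 3 or more. Over all 11670 protein-coding genes with such a peak, these counts were 5147, 3610 and 2913. After MRPL23 with 5, the small-subunit genes MRPS34, MRPS6 and MRPS7 had 4 each. MRPS7, with a bacterial homologue, had them between 2531 bp upstream and 638 bp downstream, at widths of 167 to 295 bp. MRPS34 had 1 over the start and others 737 and 2740 bp upstream and 2350 bp downstream, and MRPS6 had 4 from 381 bp upstream to 1293 bp downstream, none wider than 260 bp. Another protein-coding start was nearer to the peak of MRPS34 at 2350 bp downstream and that of MRPS7 at 638 bp. The same held for the peaks of MRPS6 at 473 and 1293 bp downstream. Averaged over all 78 genes, there were 1.24 FLAG-ZMYND8 peaks a gene, beside 1.12 for all protein-coding genes and 1.53 for those with a rich promoter. For ZMYND8 the averages were 0.436, 0.376 and 0.529. Among only the genes with a peak, the set had fewer FLAG-ZMYND8 peaks a gene, 1.70 beside 1.93 and 1.97. For ZMYND8 these averages were 1.06, 1.10 and 1.11.

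Of the 34 ZMYND8 peaks at the set, 17 (interval 34.1 to 65.9%) overlapped a FLAG-ZMYND8 peak by at least 1 bp, and 18 of the 96 FLAG-ZMYND8 peaks (18.8%, 12.2 to 27.7%) a ZMYND8 peak. At all protein-coding genes the shares were 56.4% and 21.4%, within both intervals. With a reciprocal overlap of 50%, 26.5% and 9.38% of the peaks at the set were shared. This stricter rule lowers any such share, and its shares at all protein-coding genes are not given here. The overlaps made 18 pairs at 17 genes, with midpoints a median of 82 bp apart, and 12 pairs had midpoints within 100 bp of each other. At MRPL19, a ZMYND8 peak of 433 bp and a FLAG-ZMYND8 peak of 429 bp differed in midpoint by 1 bp. At MRPL50 the gap was also 1 bp and at MRPL53 3 bp. MRPL36 was the other extreme, its 1988 bp ZMYND8 peak spanning 2 FLAG-ZMYND8 peaks of 653 and 167 bp with midpoints 627 and 931 bp away. Of the 24 genes with both peaks, 7 had peaks that did not overlap. The midpoint gaps and this count are not given here for all protein-coding genes, so neither is read as a trait of the set.

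The promoters shared features that the choice by name did not use. In the window of 300 bases, median G and C was 60.2%, as over all protein-coding genes (60.3%). The median number of CpG sites was 23 against 18 and the median observed over expected ratio 0.866 against 0.694. Genes with a rich promoter had medians of 68% G and C, 29 CpG sites and a ratio of 0.865. Motifs were searched as letters on both strands. The YY1 letters ATGGCGG were in 24 promoters (30.8%), against 5.75% of all and 9.13% of the rich ones. The ETS letters CCGGAAG were in 26 (33.3%), against 11.8% and 18.2%. A second ETS form, CGGAAGT, which overlaps the first and was added after the sequences were seen, was in 10 (12.8%), against 8.23% and 12.8%. The NRF1 letters CATGCGC were in 8 (10.3%), against 5.24% and 8.08%. The SP letters GGGCGGG were in 34 (43.6%), against 38.7% and 62.7%, CCAAT in 23 (29.5%), against 35.8% and 33.9%, and TATAAA in 4 (5.13%), against 10.9% and 3.66%. The CREB letters TGACGTCA were in none, against 2.29% of all promoters. A match is a run of letters and not a measured site.

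**Figure D5:**
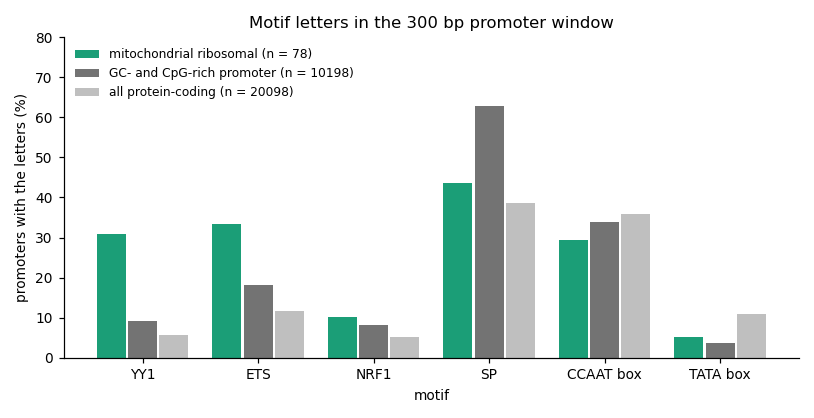
Share of promoters (%) that hold the letters of each motif on either strand in the 300 bp window, for the 78 genes, the 10198 protein-coding genes with a GC- and CpG-rich promoter and all 20098. YY1 (30.8%) and ETS letters (33.3%) stand above both backgrounds, and SP letters (43.6%) stand below those of the rich promoters (62.7%).

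The YY1 letters overlap the protein code. The ATG of the motif was the gene's own annotated start codon in 15 of the 24 promoters (62.5%), against 271 of 1156 (23.4%) among all protein-coding genes with the letters. The window reached an annotated start codon at 32 of the 78 genes (41.0%), against 11.6% of all. Among genes whose window did so, 46.9% of the set held the letters at their own start codon, against 11.7% of all. The part of leader length in these shares was not tested. The other 9 promoters (11.5%, against 4.40% of all) held the letters away from their own start codon, and 5 of these 9, those of MRPL32, MRPL36, MRPL47, MRPS7 and MRPS11, held them at the start codon of a neighbour.

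Peaks were found at genes with and without these letters. Of the 24 genes with YY1 letters, 20 had a FLAG-ZMYND8 peak and 7 a ZMYND8 peak, against 37 and 25 of the 54 without. Of the 26 with the ETS letters CCGGAAG, 21 had a FLAG-ZMYND8 and 13 a ZMYND8 peak, against 36 and 19 of the 52 without. Of the 8 with NRF1 letters, 5 and 6 did, against 52 and 26 of the 70 without. FLAG-ZMYND8 peaks covered 7 of the 24 YY1 matches outside chromosome 8 and ZMYND8 peaks 1, at MRPL36. The differences between these counts were not tested.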

How the data were processed

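ChIP-seq reads were mapped by the authors to hg19 with BWA-MEM, allowing up to 2 mismatches, and profiles were made with HOMER. The submitters' processing notes name BWA 0.7. Peak-calling settings and the way replicates were combined are not given in the sources used here. Each deposited list has 6 columns, and its score column holds 1 in all rows, so that width was used instead. Peak positions are base pairs on hg19.

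Gene starts, transcript starts and start codons came from GENCODE release 44 on GRCh37, and sequences from the GRCh37 genome. Midpoints within 1 kb and 3 kb of the 5′ end of each protein-coding gene were counted. The functions that place and overlap peaks were tested on simulated peaks. No test between groups was made. The values of 1 divergent gene pair are not reported here. The members and the related gene sets were chosen with earlier results of these data known. Genes were named by rule: the 5 widest peaks of each list, members with a ZMYND8 peak only, the 5 with neither that lie farthest from a peak, the 3 with the most FLAG-ZMYND8 peaks (4 are given, since 3 tie), those nearest the 3 kb limit, divergent genes with a shared peak, and the proteins of the stalk, decoding centre and exit tunnel. Those outside it (MRPL2, MRPL14, MRPL18, MRPL28, MRPL35, MRPL39, MRPL49, MRPL55, MRPS16, and those named for their printed sequences) were chosen after their values were seen. Alternatives were other windows, any overlapping base, transcript starts, wider peaks, genes without near neighbours, peaks nearest to the own start and 50% reciprocal overlap. The tools were pysam 0.24.0 and pandas 2.3.3 under Python 3.11.15, scipy 1.17.1 for intervals, numpy 2.4.6 and matplotlib 3.10.9.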

Additional observations from a re-analysis of the deposited data

How the results depend on the processing

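Of 38 combinations of a result on the mitochondrial ribosomal protein genes and an alternative, 32 stayed within the interval of the main value and 6 did not. With only peaks wider than the minimum, 23.1% of the genes had a ZMYND8 peak (all protein-coding genes 23%) and 17.9% peaks of both lists (18.2%), while 64.1% had a FLAG-ZMYND8 peak (46.3%). With only peaks nearest to the own start, 29.5% had a ZMYND8 peak. Without genes that have another start within 3 kb, 33.3% and 73.8% of genes had a ZMYND8 and a FLAG-ZMYND8 peak (30.4% and 53.1% of all). Of the ZMYND8 peaks within 1 kb of these genes, found at 13 of them, 92.3% were downstream. The matching share over all protein-coding genes is not given here, so this value is not read as a trait of the set. With 50% reciprocal overlap, 26.5% of ZMYND8 and 9.38% of FLAG-ZMYND8 peaks were shared. From any transcript start, 43.6% and 76.9% of genes had a peak (40.2% and 65.0% of all). The stricter peak sets and overlap lower counts by their own construction, and for the side of the start the cause was not tested. The restriction of the set to its own rich promoters and that to peaks nearest to the own start were chosen after seeing the data. No paired analysis was possible because each protein has 1 list without replicate columns, which also meant that leaving out a replicate could not be done. Depth is unknown, which limits every count of absent peaks.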
